A study of Danio rerio with 3 samples.

Results

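The lysosomal genes described here are the members of the cathepsin, LAMP, LAPTM, V-ATPase, hexosaminidase, Niemann-Pick C, acid phosphatase, prosaposin and acid glycosidase families. They were chosen by gene symbol alone, which gave 57 of the 19831 genes in the deposited count table. By role they are 15 cathepsins, 6 lysosomal membrane proteins, 10 hydrolases and lipid-handling proteins, and 26 subunits or partners of the proton pump. The cells were taken at 36 hours post fertilization from trunks of zebrafish that carried spi2:Gal4;UAS:GFP and kdrl:mCherry, were sorted singly, and had their RNA measured by STRT-seq, in which each cell is prepared in a well of its own. The 2 libraries analysed, DP 1 and DP 2, hold cells positive for both reporters, which the cell table marks kdrl+spi2+. The kdrl-spi2+ library, SP, was not analysed here. All embryos carried both transgenes, and GFP depends on the spi2 promoter fragment through Gal4, so it reports cells in which that driver is or was active.

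Lysosomes digest material delivered by endocytosis, autophagy and phagocytosis. The V-ATPase pumps protons into the lumen, the acid activates cathepsin proteases and glycosidases, and LAMP and LAPTM proteins sit in the bounding membrane. Neutrophils keep many hydrolases in granules related to lysosomes, and endothelial cells and blood progenitors use the same machinery for uptake and turnover.

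Cells were sorted into states by 3 genes. An npsn cell had npsn, which encodes the granulocyte protease nephrosin, at 1000 CPM or more, where CPM is a gene's counts scaled to 1000000 counts in all. Of the rest, a cdh5 cell had any count of cdh5, which encodes VE-cadherin, and a myb cell had any count of myb, a transcription factor of blood progenitors. DP 1 gave 53 kept cells with 9232289 counts, and DP 2 gave 35 with 3114643. In DP 1 there were 5 npsn, 6 cdh5 and 37 myb cells, and in DP 2 there were 2, 5 and 25, while 8 cells in both libraries together had none of the states. The npsn state was well separated by its npsn level, since its lowest cell had npsn at 1521 CPM and the highest cell outside it at 274. Lower npsn counts occurred in 48 of 62 myb cells and 8 of 11 cdh5 cells. The cdh5 state was not well separated, since its lowest cell had cdh5 at 5.44 CPM, a single count, and 9 of its 11 cells also had myb counts. All 7 npsn cells had myb counts too.

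Markers were checked against these states. Of 11 tested neutrophil markers, 7 were called higher in npsn than in myb cells, and without npsn itself they summed to 40353 CPM in npsn cells of DP 1 and 49658 CPM in those of DP 2, where myb cells had 4630 and 7020 CPM. The highest myb cell of DP 2 by that sum, at 38142 CPM, lay between the 2 npsn cells there, at 17312 and 51569 CPM. Of 10 tested endothelial markers, clec14a, flt1, pecam1 and tie1 were called higher in cdh5 than in myb cells. Without cdh5 the endothelial list summed to 1025 and 1321 CPM in cdh5 cells, 215 and 309 in myb cells, and 69.9 and 104 in npsn cells. By the same list the 2 npsn cells of DP 2 stood at 6.91 and 1755 CPM. Pecam1 had counts in 2 of 6 cdh5 cells of DP 1 and in 5 of 5 of DP 2. Of 9 macrophage markers in the table, mpeg1.1, csf1ra, c1qb, cd74a and cxcl19 were at 0 in all 88 kept cells, and the list summed to 2 counts in npsn cells of DP 1 and 0 in those of DP 2. The erythroid globin gene hbae3 was called higher in npsn and in cdh5 than in myb cells, but 98.5% and 99.4% of its counts in DP 1 came from 1 cell of each state. The part of that RNA in the results was not tested.

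Raw counts were summed per library and state and compared with edgeR's quasi-likelihood test, with library as a block. Nothing in the labels ties the libraries to separate batches of embryos, so p-values measure only how these 2 libraries vary, and that variation may be technical. The test also borrows its estimate of the spread from all genes tested. The small p-values and the SEs therefore rest on that pooling and not on the 2 libraries of a gene alone. The number of cells is small, and the npsn sum of DP 2 rests on 2 cells, of which the deeper holds 94.4% of the counts. Of the 57 genes 34 had enough counts to be tested, 19 fell under the count filter, and 4 had no count in kept cells (ctsll, atp6v0a1b, atp6ap1lb and lamp1a). A gene can pass that filter through a single state in which it is high, so the 34 are not a sample of all 57.

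Between npsn and myb cells 2 of the 34 were called, acp5a and ctss2.1, both higher in npsn cells. Over all genes tested 130 of 7059 were called, or 1.84%, with 1.43% higher and 0.411% lower in npsn cells. Between npsn and cdh5 cells 4 were called, of which acp5a, ctss2.1 and laptm5 were higher in npsn cells and ctsh was lower, beside 2.95% of all genes (1.88% higher and 1.06% lower). Between cdh5 and myb cells edgeR called 0 of 34, beside 0.595% of all genes (0.567% higher and 0.0283% lower), and at an unadjusted p under 0.05 it had 3 higher and 1 lower, or 11.8% of the 34, where 9.25% of all genes passed. DESeq2's Wald test also called 0 there. The 2 comparisons of npsn cells share those cells, so their calls are not independent, and with so few calls no share of the lysosomal genes is read as differing from that of all genes.

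Most of the 34 genes were called in none of the 3 comparisons. The median log2 difference over the 34 genes was 0.76 between npsn and myb cells, -0.06 between cdh5 and myb cells and 0.70 between npsn and cdh5 cells. Over all genes tested the same medians were -0.36, -0.15 and -0.21. With DESeq2 size factors in place of TMM the medians of all genes became -0.33, 0.06 and -0.39, so differences below are best read against these. The direction was the same in both libraries for 15, 13 and 18 of the 34 genes in the same order. The remaining genes are not all reversals, since they include genes with too few counts in a library to give a direction.

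**Figure D1:**
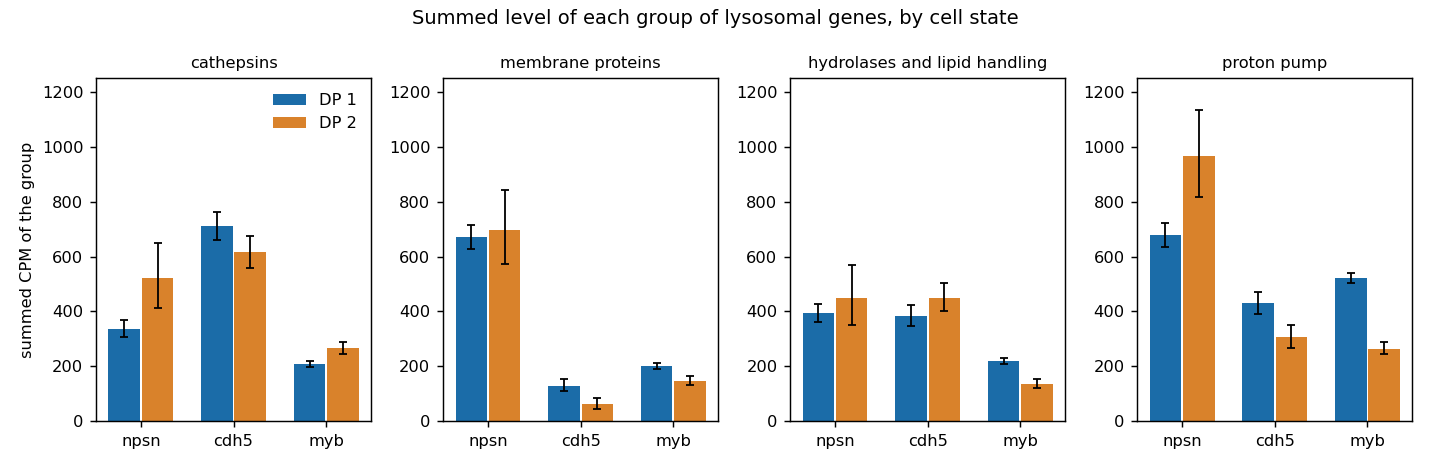
Summed level of each group of lysosomal genes, in CPM of the summed counts, for npsn, cdh5 and myb cells of DP 1 and DP 2. Bars are sums over cells and error bars are exact 95% Poisson intervals, which treat each count as independent and cover at most counting error. Cathepsins stand highest in cdh5 cells (711 and 615 CPM) and membrane proteins in npsn cells (671 and 698 CPM, or 113 and 71.8 CPM without laptm5).

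The groups differed in where their sums were high, as the plot of summed levels shows. Cathepsins together made up 335 CPM in npsn cells of DP 1 and 522 in DP 2, against 711 and 615 in cdh5 cells and 208 and 266 in myb cells. Membrane proteins made up 671 and 698 CPM in npsn cells, 129 and 61.7 in cdh5 cells, and 199 and 147 in myb cells. The membrane pattern rests largely on 1 gene, and the cathepsin pattern against npsn cells moved with the gene left out. Without laptm5 the membrane sums were 113 and 71.8 CPM in npsn cells, 90.7 and 55.9 in cdh5 cells and 87.0 and 42.8 in myb cells. The ranges of the states over the 2 libraries overlap, though within each library npsn cells stood highest and myb cells lowest. The counting intervals of npsn and cdh5 cells overlapped in each library. Without ctsla the cathepsin sums were 288 and 515 CPM in npsn cells, 403 and 459 in cdh5 cells and 195 and 234 in myb cells. The cdh5 sums then lay within the npsn range but above the myb sums in both libraries. Without ctss2.1 the cathepsin sums were 192 and 228 CPM in npsn cells, 704 and 615 in cdh5 cells and 207 and 263 in myb cells. Hydrolases and lipid-handling proteins gave 393 and 450 CPM in npsn cells, 384 and 450 in cdh5 cells, and 219 and 136 in myb cells. Proton pump genes gave 679 and 966 CPM in npsn cells and 430 and 307 in cdh5 cells, and the myb sums of the 2 libraries, at 521 and 264, lay on either side of both cdh5 sums. No test was run on these sums.

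The cathepsin ctss2.1 is one of the zebrafish genes related to mammalian cathepsin S, a cysteine protease of antigen-presenting and other myeloid cells. Its summed level in npsn cells was 143 CPM in DP 1 and 294 in DP 2. It was 6.61 and 0 CPM in cdh5 cells, and 1.08 and 2.73 in myb cells. The state sums did not overlap in either library. Per cell it stood at 105, 715, 37.0, 34.1 and 57.0 CPM in the npsn cells of DP 1 and at 117 and 304 in those of DP 2. All 7 npsn cells had counts, and all 7 were among the 10 highest of the 88 cells. It had counts in 1 of 11 cdh5 cells and in 8 of 62 myb cells, the highest of them at 48.4 CPM, which overlaps the lower npsn cells.

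Ctss2.1 was 132-fold higher in npsn than in myb cells of DP 1 (95% counting interval 62.9 to 333) and 107-fold higher in DP 2 (45.7 to 308). The fitted log2 difference was 6.86 ± 1.14 (SE, 2 libraries per state), with a Benjamini-Hochberg adjusted p of 4.41e-05 from edgeR. Against cdh5 cells it was 21.6-fold higher in DP 1, and at least 68.3-fold higher in DP 2, where cdh5 cells had 0 counts and the floor is 3 counts in the summed library. That fitted difference was 5.75 ± 1.24, with an adjusted p of 0.00216 from edgeR. Of the 7 counts in cdh5 cells, all came from 1 cell of DP 1. RefSeq (GRCz12tu) places ctss2.1 directly beside the related genes ctss2.2 and ctsk, and how reads shared between such copies were counted is not known here. Ctss2.2 had 13 counts in 1 npsn cell of DP 1 and 0 in cdh5 cells, and ctsk had 0 counts in npsn cells.

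The cathepsin ctsh, related to cathepsin H, an aminopeptidase of the lysosome, was nearly undetected in npsn cells. Its summed level was 1.44 CPM (2 counts) in npsn cells of DP 1. In DP 2 it was 0 of 153267 counts, with an exact 95% Poisson upper limit of 24.1 CPM. It was 107 and 186 CPM in cdh5 cells, and 55.2 and 62.8 in myb cells. The highest npsn cell had 3.09 CPM, and 9 of 11 cdh5 cells and 35 of 62 myb cells had counts. The ratio of npsn to cdh5 cells was 0.0135 in DP 1 (95% counting interval 0.00161 to 0.0499), and in DP 2 ctsh was at least 9.52-fold lower in npsn cells. The fitted difference was -6.21 ± 1.63, with an edgeR adjusted p of 0.0170. Against myb cells the ratio was 0.0261 in DP 1 (0.00315 to 0.0949) and npsn cells were at least 3.21-fold lower in DP 2, but the fitted difference of -5.14 ± 1.71 had an edgeR adjusted p of 0.128. DESeq2's Wald test gave an adjusted p of 0.00988 for the latter. With myb cells limited to those at 100 CPM of myb or more, edgeR's adjusted p for npsn against cdh5 cells was 0.0536.

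The cathepsin ctsla, a zebrafish relative of cathepsin L, an endopeptidase of lysosomes, had its highest levels in cdh5 cells. Its summed level there was 308 CPM in DP 1 and 156 in DP 2, against 13.1 and 32.3 in myb cells and 46.8 and 6.52 in npsn cells. The cdh5 sums lay above those of both other states in each library. The cdh5 cells stood at 589, 814, 67.0, 198, 0 and 14 CPM in DP 1 and at 17.2, 0, 119, 253 and 258 in DP 2. In myb cells the median was 0 CPM in DP 1 and 8.28 in DP 2, and the highest cells were at 56.5 and 363, so single cells of the states overlapped. Of the 10 cells highest in ctsla 6 were cdh5 cells. The 2 highest cells of DP 1 had 0 counts of pecam1, and the cell at 589 CPM had lyz, a neutrophil lysozyme gene, at 5615 CPM. The part of such mixed markers in the level was not tested.

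Ctsla was 23.5-fold higher in cdh5 than in myb cells of DP 1 (95% counting interval 18.5 to 30.2) and 4.83-fold higher in DP 2 (3.55 to 6.61). The fitted log2 difference of 3.22 ± 0.84 had an edgeR adjusted p of 0.0502 and was not called. Its call turned on the setting: with DESeq2 size factors the edgeR adjusted p was 0.0451, without the deepest cell of each state and library it was 0.00292, and with cells thinned to equal depth it was 0.0384. In the npsn sum of DP 1, 90.8% of the ctsla counts came from 1 cell. Between npsn and cdh5 cells the fitted ctsla difference was -2.32 ± 0.90 (edgeR adjusted p = 0.157), and without the deepest cells it was -5.18 (0.00182). The latter setting left out the DP 1 npsn cell that held 90.8% of the ctsla counts there. In DP 2 it left 1 npsn cell, of 8549 counts, with ctsla at 0. Cdh5 cells with myb counts had ctsla at 256 CPM (9 cells) and those without at 140 CPM (2 cells). The 2 cells without were both in DP 2, while all 6 cdh5 cells of DP 1 had myb counts. The pooled difference therefore cannot be told apart from the one between libraries. Within DP 2 the 3 cdh5 cells with myb counts stood at 0, 119 and 258 CPM, and the 2 without at 17.2 and 253. These cells overlapped, and no test was run on them.

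Of the other tested cathepsins none was called in any of the 3 comparisons. Ctsf, a relative of the cysteine protease cathepsin F, stood at 87.9 and 54.5 CPM in cdh5 cells and at 14.7 and 25.0 in myb cells, a fitted difference of 1.74 ± 0.89 (edgeR adjusted p = 0.548). A single cell gave 69.9% of the cdh5 counts in DP 1 and 94.7% in DP 2. Ctsd, which encodes the aspartic protease cathepsin D, stood at 129 and 87.5 CPM in cdh5 cells, 54.4 and 35.5 in myb cells and 54.0 and 0 in npsn cells, and its fitted difference between cdh5 and myb cells was 1.09 ± 0.80. Between npsn and myb cells ctsz differed by 0.51 ± 1.1 and ctsc by -0.97 ± 1.86. Ctsc encodes the dipeptidase that activates granule serine proteases in mammals. Here it had counts in 1 of 7 npsn cells, where 12 of all 88 cells had counts. Ctsba, a relative of cathepsin B, stood at 20.9 and 124 CPM in npsn cells and at 36.6 and 61.5 in myb cells, so its direction differed between the libraries.

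**Figure D2:**
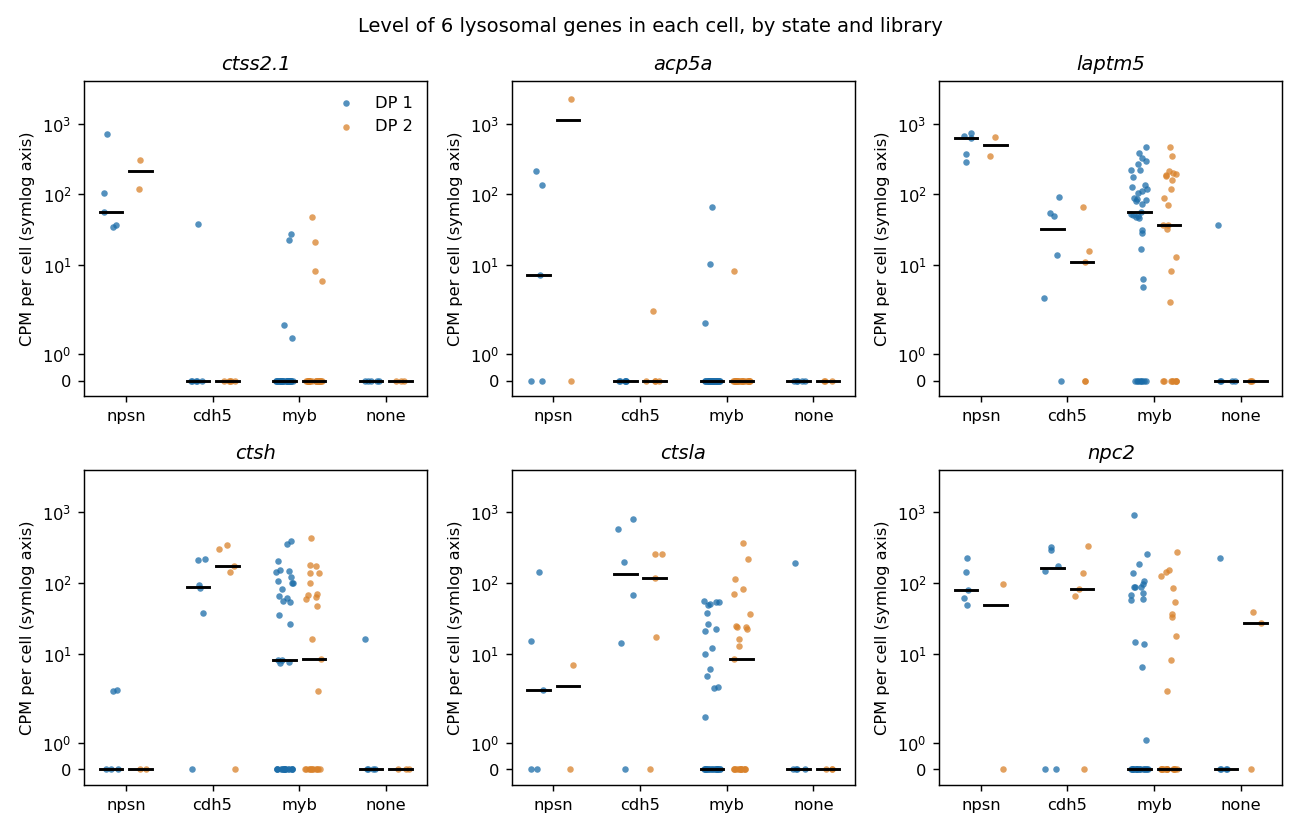
Level of ctss2.1, acp5a, laptm5, ctsh, ctsla and npc2 in each of the 88 cells, in CPM on a symlog axis that is linear near 0, by state and library. Points are cells and black lines are medians. All 7 npsn cells have ctss2.1 counts, at 34.1 CPM or more, and no npsn cell is above 3.09 CPM for ctsh.

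Among hydrolases, acp5a, which is related to the tartrate-resistant acid phosphatase of osteoclasts and macrophages, was called higher in npsn cells in both comparisons. Its summed level was 95.8 CPM in npsn cells of DP 1 and 124 in DP 2. It was 0 and 1.43 CPM (1 count) in cdh5 cells, and 5.55 and 0.455 CPM (1 count) in myb cells. The sums did not overlap, but only 4 of 7 npsn cells had counts. Per cell it was 135, 0, 0, 212 and 7.13 CPM in DP 1, and 2222 and 0 in DP 2. All 19 counts of DP 2 came from its shallow cell of 8549 counts, and 91.7% of the myb counts of DP 1 came from 1 cell. That shallow npsn cell also had the endothelial list at 1755 CPM and the erythroid list at 1404 CPM, where the deeper one had 6.91 for each. The part of such mixed markers in the acp5a level was not tested.

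Acp5a was 17.3-fold higher in npsn than in myb cells of DP 1 (95% counting interval 11.9 to 25.7), and in DP 2 the ratio of 19 to 1 counts was 272 (43.3 to 11313). The fitted difference was 4.84 ± 1.1, with an edgeR adjusted p of 0.00562. Against cdh5 cells it was at least 33.8-fold higher in DP 1, with a ratio of 86.5 (13.7 to 3592) in DP 2, and the edgeR adjusted p was 0.0121. Without the shallow cell acp5a had too few counts to be tested. The call was also lost with edgeR's older quasi-likelihood fit (adjusted p = 0.313 against myb and 0.0623 against cdh5 cells), and against cdh5 cells with npsn cells from 100 CPM (edgeR adjusted p = 0.0658) or cdh5 cells from 100 CPM (0.116). With any npsn count making an npsn cell, acp5a had too few counts to be tested. The rule for npsn-specific members was that a gene be called higher in both comparisons and be at least 4-fold higher in each library. By it acp5a and ctss2.1 were the members specific to npsn cells, and without the shallow cell ctss2.1 alone remained. Both genes passed the count filter through their npsn sums, so the rule describes them and adds no separate support. With DESeq2 size factors or its Wald test laptm5 met the rule as well, which made 3, and with cdh5 cells from 100 CPM laptm5 took the place of acp5a. Laptm5 also met it with thinned cells, where acp5a had too few counts to be tested. The paralogue acp5b had 98 counts, all in 7 myb cells of DP 1.

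The Niemann-Pick C genes encode partners that move cholesterol out of the lysosome, npc2 in the lumen and npc1 in the membrane. Npc2 stood at 182 and 215 CPM in cdh5 cells, 49.8 and 46.9 in myb cells, and 100.1 and 91.3 in npsn cells. The cdh5 sums were 3.66-fold and 4.59-fold above those of myb cells, and the fitted difference of 1.86 ± 0.73 had an edgeR adjusted p of 0.327. In DP 2 a single cell gave 84.0% of the cdh5 counts. Npc2 in npsn cells differed from myb cells by 1.07 ± 0.80 (edgeR adjusted p = 0.590). Npc1 stood at 7.92 and 0 CPM in npsn cells, 0 and 22.9 in cdh5 cells, and 19.3 and 14.6 in myb cells.

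The gene hexa encodes a subunit of a glycosidase that breaks down gangliosides. Hexa stood at 26.5 and 61.7 CPM in cdh5 cells, 2.16 and 9.11 in myb cells, and 37.5 and 0 in npsn cells. It was 12.3-fold and 6.77-fold higher by sums in cdh5 than in myb cells, but the fitted difference of 2.98 ± 1.1 had an edgeR adjusted p of 0.264. All 5 npsn cells of DP 1 had hexa counts against 3 of 37 myb cells, but at unequal depth, with median totals of 324048 and 123677 counts. In DP 2 no npsn cell had a hexa count. The fitted difference between npsn and myb cells of 3.11 ± 1.22 had an edgeR adjusted p of 0.250. Psap, the precursor of the saposins that help glycosidases reach lipids, stood at 72.0 and 58.7 CPM in npsn cells, 124 and 116 in cdh5 cells and 72.0 and 33.2 in myb cells, with no call in the 3 comparisons.

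Of the membrane proteins laptm5, which encodes a lysosomal protein of blood cells that lowers surface receptor levels in mammals, had its highest levels in npsn cells. Its summed level was 558 CPM in npsn cells of DP 1 and 626 in DP 2, against 37.8 and 5.74 in cdh5 cells and 112 and 104 in myb cells. The npsn cells stood at 673, 748, 367, 626 and 285 CPM in DP 1 and at 351 and 643 in DP 2. All of them lay above the highest cdh5 cell at 92.8 CPM. They overlapped with myb cells, of which 46 of 62 had counts and the highest reached 463 CPM in DP 1 and 468 in DP 2. Of the 10 cells highest in laptm5, 6 were npsn cells and 4 were myb cells.

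Laptm5 was 14.8-fold higher in npsn than in cdh5 cells of DP 1 (95% counting interval 10.7 to 20.8) and 109-fold higher in DP 2 (41.3 to 409). The fitted difference was 4.85 ± 0.84, with an edgeR adjusted p of 9.66e-05. Against myb cells it was 4.99-fold and 6.03-fold higher by sums, but the fitted difference of 2.38 ± 0.69 had an edgeR adjusted p of 0.0523 and was not called. DESeq2 size factors (0.0285), DESeq2's Wald test (0.0334), cdh5 cells limited to 100 CPM or more (0.0102) and thinned cells (0.00845) each gave an adjusted p under the threshold. The limit on cdh5 cells moved those under it that had myb counts into the myb state. That state then held 41 cells in DP 1 and 27 in DP 2, in place of 37 and 25. Between cdh5 and myb cells the fitted difference was -2.47 ± 0.82 (edgeR adjusted p = 0.175), and the cdh5 sum was the lower one in both libraries.

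The other membrane proteins had no call. Lamp2, a major glycoprotein of the lysosomal membrane that also serves chaperone-mediated autophagy, stood at 43.2 and 0 CPM in npsn cells, 58.6 and 15.8 in cdh5 cells and 11.7 and 15.9 in myb cells. Laptm4a differed by 0.14 ± 0.93 and laptm4b by 1.89 ± 1.35 between npsn and myb cells. Lamp1b had 21 counts, all in myb cells.

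The V-ATPase has a cytosolic V1 part that splits ATP and a membrane V0 part that carries protons. Of its 26 genes 16 were tested, and 0 were called by edgeR in each of the 3 comparisons. At an unadjusted p under 0.05 there were 2 higher and 0 lower in npsn than in myb cells, 2 and 0 in npsn than in cdh5 cells, and 0 in either direction between cdh5 and myb cells. These are 12.5%, 12.5% and 0% of the 16, and over all genes 12.1%, 16.7% and 9.25% passed, so they are no result about the pump. Atp6ap2, an accessory subunit also known as the prorenin receptor, stood at 97.2 and 359 CPM in npsn cells, 26.5 and 25.8 in cdh5 cells and 38.6 and 22.3 in myb cells. All 5 npsn cells of DP 1 had atp6ap2 counts, between 43.2 and 128 CPM, while in DP 2 they came from 1 of 2 cells. Its fitted difference was 2.46 ± 0.83 against myb cells and 2.91 ± 0.94 against cdh5 cells, with edgeR adjusted p of 0.136 and 0.0787. DESeq2's Wald test called both (adjusted p = 0.0415 and 0.0175).

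Several V1 subunit genes had npsn sums above the myb sums in both libraries without a call. Atp6v1c1a, for subunit C of the V1 part, stood at 54.7 and 6.52 CPM in npsn cells and 7.25 and 4.10 in myb cells, a difference of 2.76 ± 1.2 (edgeR adjusted p = 0.323). Atp6v1ba, for a subunit B, stood at 33.9 and 58.7 CPM in npsn cells and 10.5 and 10.0 in myb cells, a difference of 1.97 ± 1.11. For the V0 part, atp6v0d1 stood at 33.9 and 117 CPM in npsn cells and 16.7 and 6.37 in myb cells, a difference of 2.12 ± 1.09. The npsn levels in DP 2 rest on 1 to 18 counts for these 3 genes. Atp6v1e1a had 0 counts in npsn cells, and all 132 counts of atp6v0cb in myb cells of DP 1 came from 1 cell.

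**Figure D3:**
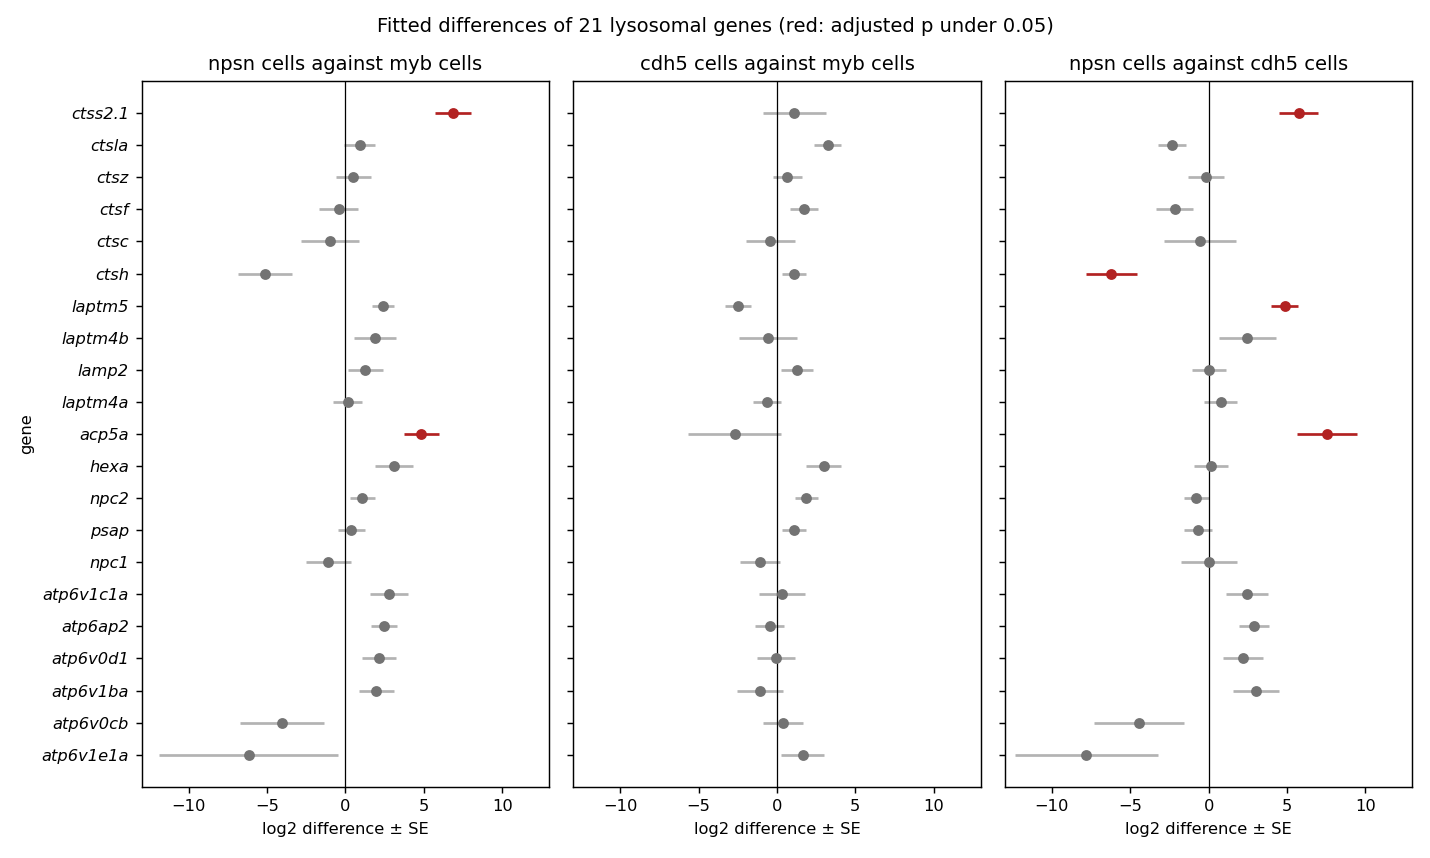
Fitted log2 difference with its SE for 21 lysosomal genes in the 3 comparisons, grouped by role. Red points have a Benjamini-Hochberg adjusted p under 0.05, which are acp5a and ctss2.1 between npsn and myb cells, 0 genes between cdh5 and myb cells, and acp5a, ctss2.1, laptm5 and ctsh between npsn and cdh5 cells. Genes with 0 counts in a state have wide error bars.

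**Figure D4:**
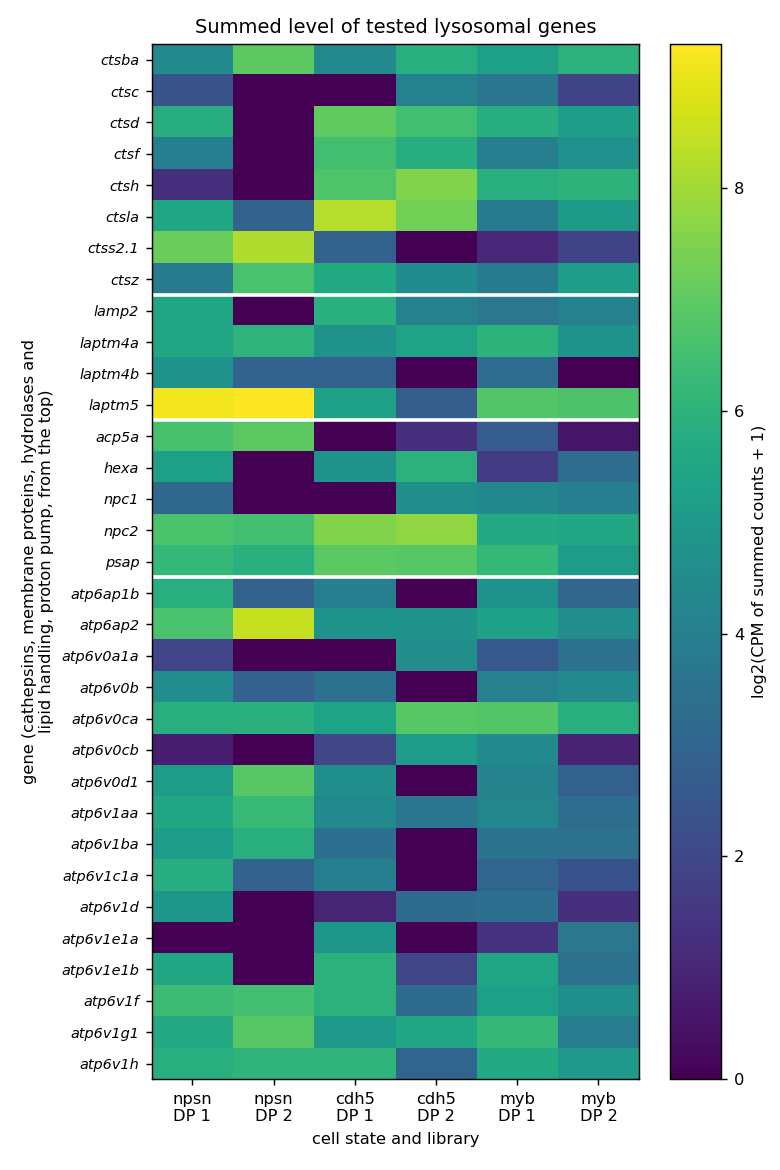
Summed level of 33 of the 34 tested lysosomal genes as log2(CPM + 1), with npsn, cdh5 and myb cells of both libraries in columns and genes ordered by role in rows. The ctss2.1, acp5a and laptm5 rows are bright in npsn columns, and the ctsh row is dark there.

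Of the 19 genes under the filter, some are given here as a description, and not all of them kept to a single state. Ctss1, another relative of cathepsin S, had 34 counts in 2 npsn cells of DP 1, 1 count in myb cells of each library and 0 in cdh5 cells. Ctsk, related to the collagen-degrading cathepsin K of osteoclasts, had 26 counts in 2 cdh5 cells of DP 2, 2 counts in cdh5 cells of DP 1, 7 in myb cells of DP 2 and 0 in npsn cells. The glycosidase genes gba and gaa had 14 and 20 counts in all kept cells, of which 9 and 10 were in cdh5 cells of DP 1 and the rest in myb cells. Genes with counts in myb cells alone included acp5b (98), atp6v1b2 (32), ctso (30), atp6v0a2a (26), atp6ap1a (21) and lamp1b (21). Myb cells were also the most numerous, at 62 of 88.

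A list of 62 further lysosome genes, drawn up for other hydrolases, trafficking and regulators, was read beside these. The count table holds 55 of them, and 24 were tested. Between npsn and myb cells 1 of the 24 was called higher and 0 lower, beside 1.84% of all genes called. Between npsn and cdh5 cells 1 was higher and 0 lower, beside 2.95%. Between cdh5 and myb cells edgeR called 0, beside 0.595%. There 2 were higher and 0 lower at an unadjusted p under 0.05, or 8.33% where all genes had 9.25%. The median there was 0.24, where all genes had -0.15. The median differences of npsn cells were 0.74 against myb and 0.42 against cdh5 cells, where all genes had -0.36 and -0.21. With so few calls no share is read as differing from that of all genes. Rnaset2, a lysosomal ribonuclease, stood at 78.5 and 124 CPM in npsn cells and 4.94 and 14.6 in myb cells, a difference of 3.68 ± 0.98 (edgeR adjusted p = 0.0272). Cd63, a tetraspanin of lysosomes and granules, stood at 2011 and 2629 CPM in npsn cells and 756 and 680 in cdh5 cells. That is a difference of 1.80 ± 0.51 (edgeR adjusted p = 0.0328). Neither gene was called in the other comparison of npsn cells. Rnaset2 differed by 2.60 from cdh5 cells (edgeR adjusted p = 0.179) and cd63 by 1.54 from myb cells (edgeR adjusted p = 0.116).

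The number of lysosomal genes detected per cell was compared at equal depth. With each cell thinned to 20217 counts, the median number of the 57 genes with a count was 16 in the 5 npsn cells of DP 1 and 14 in the 1 that remained in DP 2. It was 10 and 9 in cdh5 cells, and 8 and 6.5 in myb cells. The highest myb cell reached 15 in DP 1 and 12 in DP 2, so the ranges overlapped in DP 1. The highest cdh5 cell of DP 1 reached 19, above the highest npsn cell at 17. Unthinned medians were 29 and 14 in npsn cells, 17 and 13 in cdh5 cells, and 13 and 11 in myb cells. Unthinned npsn cells of DP 1 also had 4644 to 5176 genes of any kind, where the median over kept DP 1 cells was 3543. Thinned numbers of all genes are not given, so these medians cannot be read as particular to lysosomal genes. No test was run on these numbers.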

How the data were processed

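The authors deposited whole-number counts per gene and cell, used as given. The submitters' processing notes list HISAT2 2.1.0, Trimmomatic 0.36 and the genome build GRCz11, with no role for each. The sources used here do not give the counting tool, the use of strand or any collapsing of copies. The table holds 93 cells, of which 88 with 500 or more genes were kept. DP 1 cells had 15439 to 903548 counts and DP 2 cells 4818 to 379006. Well barcodes are reused, and 36 occur in both libraries, while 0 cells had identical counts. No doublet caller was run on singly sorted cells. The cell table lists 93 DP 2 cells, while the count table holds 37, so DP 2 is a partial library. It also lists 93 SP cells, but the count table has 0 SP columns, so the planned comparison with them was not run.

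Counts were summed per library and state and tested with edgeR 4.0.16 (R 4.3.3), TMM, filterByExpr, quasi-likelihood, two-sided, library as a block. Each gene had 2 residual degrees of freedom of its own, and the quasi-likelihood test adds to these by pooling the spread over genes. Npsn, cdh5 and myb were left out. Each SE is the absolute log2 difference divided by the square root of F. P-values were adjusted over all 7059 genes by Benjamini-Hochberg, with 0.05 as the threshold. The block was used because the states of a library share its sort. Intervals are exact 95% Poisson intervals or, for ratios, exact binomial ones. They treat each count as independent and cover at most counting error. Among nonzero entries per gene and cell the median was 8, and 19.7% of them equalled 1. Whether copies of a molecule were collapsed is not known and was not tested. If they were not, the intervals are too narrow even for counting error. Bounds use 3 counts.

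Named genes are all called members and, in each role group, those with the largest difference between npsn and myb cells up to 6. For 1 gene so named the values are not reported here. Of the other lysosome list, called genes are named. Genes outside this rule (ctsd, ctsba, acp5b, lamp1b, ctss1, ctss2.2, ctsk, gba, gaa, atp6v1b2, ctso, atp6v0a2a, atp6ap1a) were chosen after their values were seen. Members, states and lists were chosen with earlier results of these data known. Of the 57 symbols 56 matched RefSeq names, and near-identical copies may share counts. DESeq2 1.42.0, filters, state limits, thinning to 20217 counts and left-out libraries and cells were alternatives.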

Additional observations from a re-analysis of the deposited data

How the results depend on the processing

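Counts of called genes moved with the definition of the states and the fit. Between npsn and myb cells, 130 genes fell to 57 with npsn cells from 100 CPM, 74 with myb cells from 100 CPM, 76 with the older quasi-likelihood fit (added after seeing the data) and 83 without the deepest cells. Between cdh5 and myb cells, 42 became 25 with no count filter, 0 with npsn from 100 CPM, 8 with myb from 100 CPM, 2 with the older fit and 21 with thinned cells. Between npsn and cdh5 cells, 208 became 566 with DESeq2's Wald test, 72 with npsn from 100 CPM, 120 with myb from 100 CPM, 138 with the older fit and 135 with thinned cells, for which 1706 genes were tested. With any npsn count making an npsn cell, 0 genes and 0 members were called in the 3 comparisons, over 4633 tested genes. That setting gave 42 npsn, 1 cdh5 and 4 myb cells in DP 1, and 18, 2 and 10 in DP 2. Without the replicate block, the counts were 59, 0 and 108 genes, and the same members were called.

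Of members, 2 between npsn and myb cells became 5 with DESeq2's Wald test, 1 with the older fit and 1 without the shallow npsn cell of DP 2 (added after seeing the data). Over all genes the Wald test called 106 higher and 84 lower of 7059, and the older fit 41 and 35. Without the shallow cell 84 were higher and 29 lower of 7042. With so few members called, none of these changes is read as particular to lysosomal genes. Between cdh5 and myb cells, 0 became 1 (ctsla) with DESeq2 size factors, without the deepest cells and with thinned cells. Over all genes these settings called 46 higher and 0 lower of 7059, 35 and 6 of 6066, and 19 and 2 of 1706. Between npsn and cdh5 cells, 4 became 2 with thinned cells, which left 7 members to test, beside 77 higher and 58 lower of 1706 genes. The 2 npsn-specific members became 1 with npsn from 100 CPM, with the older fit and without the shallow cell, 0 with any npsn count, and 3 with DESeq2 size factors or its Wald test, using the folds of the states as first defined.

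Directions between npsn and myb cells turned for laptm4a (-0.23 with npsn from 100 CPM, -0.34 with any npsn count), ctsla (-0.66 with cdh5 from 100 CPM, -1.68 without the deepest cells), psap (-0.98 with any npsn count, -0.0086 without the deepest cells) and lamp2 (-0.0894 with the Wald test, -0.10 with the older fit). With any npsn count they also turned for atp6v0cb (7.05), ctsh (0.69) and ctsf (0.89). None of these was called before or after, and the cause was not tested. Settings that change the npsn or cdh5 limit move cells between states, so they compare other sets of cells. With any npsn count, 48 myb cells became npsn cells. Leaving out the deepest cells left 1 npsn cell in DP 2. Leaving out 1 library left no residual degrees of freedom and gave values with no test. They ranged from 6.2 to 7.20 for ctss2.1, 4.31 to 7.28 for acp5a and 2.1 to 2.53 for laptm5 between npsn and myb cells, from -10.34 to -5.75 for ctsh between npsn and cdh5 cells, and from 1.93 to 4.34 for ctsla between cdh5 and myb cells. Over the alternatives with a test, single-gene values lost a call 9 times, gained one 11 times and changed direction 11 times. Depth limits members with few counts in npsn cells of DP 2, where 3 counts are 19.6 CPM.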

Other observations

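Some cells outside the npsn state carried neutrophil transcripts, and their lysosomal genes are given as values. A myb cell of DP 2 with npsn at 274 CPM had lyz at 23179 CPM, ctss2.1 at 48.4, laptm5 at 468, and acp5a and ctsh at 0. A second myb cell of DP 2 with npsn at 24.4 CPM had lyz at 11515 CPM, ctss2.1 at 8.13 and laptm5 at 89.4, also with acp5a and ctsh at 0. A myb cell of DP 1, next by the same sum, had lyz at 2975 CPM, laptm5 at 218, acp5a at 66.1, ctsh at 54.1 and ctss2.1 at 0. These cells were picked by their neutrophil-list sums and enter no comparison of their own. The npsn cells had little spi2, the gene of the sort reporter, which edgeR called lower than in myb cells (log2 difference -5.64, adjusted p = 0.000653) and than in cdh5 cells (-6.62, adjusted p = 3.41e-05). It stood between 0 and 9.02 CPM in the 5 npsn cells of DP 1 and at 117 and 0 in the 2 of DP 2. The 8 cells of no state had the 57 genes at 614 CPM in DP 1 and 1124 in DP 2, from 185 and 76 counts.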
